A study of Mus musculus with 11 samples.

Results

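The genes described here carry cells through mitosis and guard it with the spindle checkpoint. They were chosen by name, as 41 gene symbols, and each was read from the probe set with the highest mean over all 11 arrays among those that carry that symbol alone. Of the 41 genes, 40 had such a probe set and all 40 passed the filter on low values; Ccnb1, the gene of cyclin B1, had none and was not analysed here. They are 40 of 18193 named genes on the array, of which 13285 passed the filter and were tested. 27 of the 40 had more than 1 probe set.

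Levels were measured in 2 clonal mouse cell lines, described by the submitters as progenitors of interstitial cells of Cajal (the pacemaker cells of the gut), and in the tissue each came from, the muscular wall of the stomach. The C57BL/6J line, 2xSCS2F10, was derived from wild-type C57BL/6J mice and grown at 37 °C in NeuroCult NSC proliferation medium to which 5% chick embryo extract was added (3 arrays), and C57BL/6J gastric muscular wall was the matching tissue (2 arrays). The tsA58 line, 2xSCS70, came from the H-2Kb-tsA58 strain, whose transgene encodes a heat-sensitive simian virus 40 large T antigen under the interferon-inducible H-2Kb promoter. Its cultures were kept at 39.5 °C without interferon-gamma in that base medium, with no extract named (3 arrays); the matching tissue came from the same strain (3 arrays). Each line is 1 clone, so clone, strain, temperature and medium cannot be told apart between them, and no age is given for the mice. Sample titles use the word biological for the replicates, but the design text mentions more than 1 array for each sample. Separate cultures or animals are not stated, so p-values measure only the spread between these arrays, which may be technical.

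Mitosis is entered when CDK1 joined to B-type cyclins becomes active. Kinetochores then bind spindle microtubules, and checkpoint proteins such as BUB1, BUBR1 and MAD2 hold back the anaphase-promoting complex until every chromosome is attached. Once CDC20 is released that complex destroys cyclin B and securin, separase opens cohesin, and the midzone and a contractile ring divide the cell. Most of these genes are transcribed late in the cell cycle, through the DREAM and B-MYB-MuvB complexes and FOXM1, which act at a promoter element called the CHR (cell cycle genes homology region), often beside CCAAT boxes bound by NF-Y. Large T antigen binds the retinoblastoma family of pocket proteins, which repress cell cycle genes.

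The start windows of 4 members are shown because these promoters carry the elements named above; they belong to the members with the largest tsA58 line minus tissue differences among those that have a CHR within 100 bases of the start and a CCAAT box. They are from RefSeq (assembly GRCm38.p6), 5′ to 3′ on the gene's strand, and run from 150 bases before the annotated start to 30 after it. Capitals mark CHR matches (TTTGAA or TTCGAA, either strand) and CCAAT boxes (CCAAT, either strand). The stretches are chr2:127831830-127832009 (minus strand) for Bub1, a checkpoint kinase; chr11:99024160-99024339 (minus) for Top2a, topoisomerase II alpha; chr2:164769779-164769958 (plus) for Ube2c, a ubiquitin-conjugating enzyme of the anaphase-promoting complex; and chr2:172370541-172370720 (minus) for Aurka, the Aurora A kinase. Bub1 holds 1 CHR and 2 CCAAT boxes in the printed stretch, Top2a 3 and 4, and Ube2c 1 and 2. Aurka holds 2 CCAAT boxes there, and its CHR begins 33 bases after the start, past the printed end.
Bub1: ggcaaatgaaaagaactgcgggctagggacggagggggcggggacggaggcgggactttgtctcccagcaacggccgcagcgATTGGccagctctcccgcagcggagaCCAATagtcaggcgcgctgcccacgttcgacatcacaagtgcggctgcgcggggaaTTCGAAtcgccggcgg
Top2a: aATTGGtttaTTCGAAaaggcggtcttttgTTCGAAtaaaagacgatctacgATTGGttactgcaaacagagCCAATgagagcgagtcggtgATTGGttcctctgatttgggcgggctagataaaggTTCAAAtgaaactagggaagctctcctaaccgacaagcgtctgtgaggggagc
Ube2c: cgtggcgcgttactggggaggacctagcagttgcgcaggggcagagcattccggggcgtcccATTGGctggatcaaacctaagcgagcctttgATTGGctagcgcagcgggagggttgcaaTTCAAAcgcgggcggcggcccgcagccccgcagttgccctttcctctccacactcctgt
Aurka: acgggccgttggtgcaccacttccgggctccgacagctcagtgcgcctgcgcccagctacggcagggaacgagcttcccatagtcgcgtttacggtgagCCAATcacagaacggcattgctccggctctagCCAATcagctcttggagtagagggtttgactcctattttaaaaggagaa

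Start windows of 300 bases (250 before the start to 50 after) were found for 34 of the 41 genes. A CHR match lay in 28 of the 34 (82.4%), against 21.7% of 27025 genes in the same table. It lay within 100 bases of the start in 27 members (79.4%) and in 10.2% of all genes. A CCAAT box was present in 27 members (79.4%) against 41.1% of all genes, and 2 or more boxes in 17 (50.0%) against 13.3%. The pair of a CHR within 100 bases and a CCAAT box was held by 24 members (70.6%) and by 4.09% of all genes. The E2F core GCGGGAA was found in 1 member, Ncapg (2.94%), against 5.29% of all genes. The 34 genes had 36 windows, as Ect2 and Prc1 each had 2 that overlap, and sites in both were counted in each. Over 41 CHR matches counted this way the median first base lay 15 bases before the start, and over 63 CCAAT boxes it lay 68 bases before. Birc5, Mad2l1, Nuf2 and Nusap1 had neither element in these windows. These matches describe the letters in the windows and no test was made of them.

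**Figure D1:**
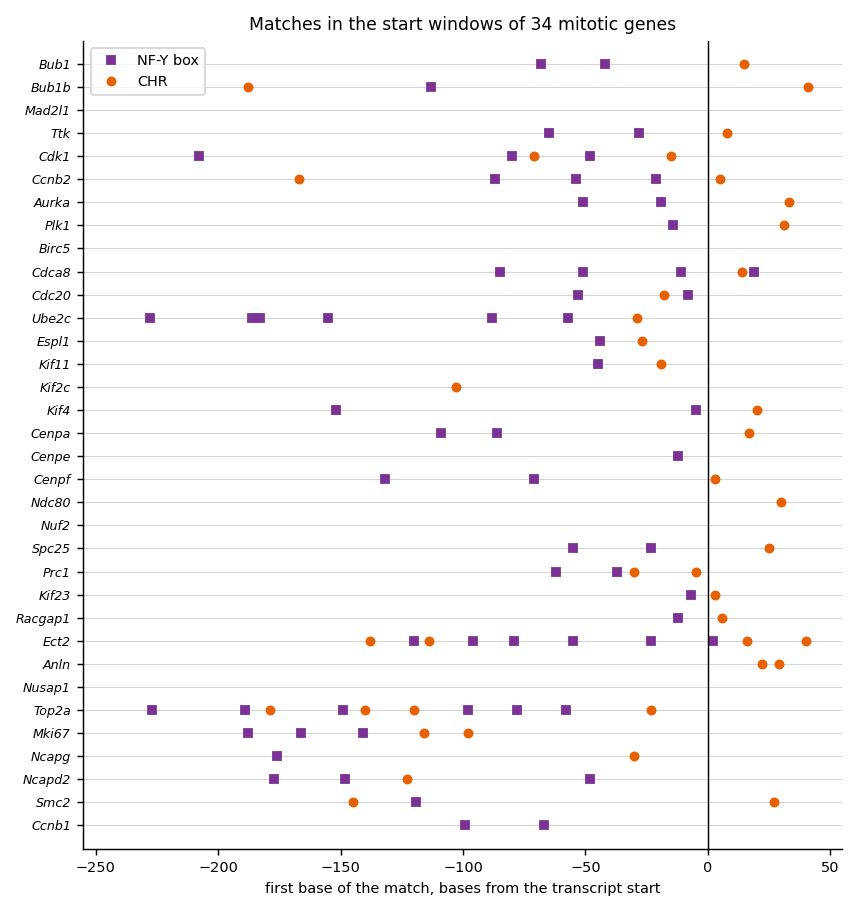
Positions of CHR matches (circles) and CCAAT boxes, drawn as NF-Y boxes (squares), in the start windows of 34 mitotic genes. The horizontal axis is the distance in bases of the first base of each match from the transcript start (line at 0), and each row is 1 gene; most CCAAT boxes lie before the start, and the CHR matches cluster around it, with a median 15 bases before it.

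The deposited values are log2 intensities on a scale on which the array median over all probe sets lay between 4.66 and 4.84; values near that median cannot be told from background, and a difference that ends there understates the change. A difference of 1 is 2-fold. Differences between groups were tested with limma over all 13285 genes, and a gene is called higher or lower where its Benjamini-Hochberg adjusted p is below 0.05 and the difference is at least 2-fold. Errors are standard errors of the fitted difference, and the number of arrays limits the precision. The labelled tissue carried its markers: all 8 smooth muscle markers and all 5 measured markers of interstitial cells of Cajal were above the array median on all 5 tissue arrays. In the lines 3 of those 5 were above it on every array, and Kit, the defining receptor of these cells, lay between 3.16 and 3.87, below the median.

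The arrays differed in the median level of the mitotic genes. Taking each gene's level minus its mean over 11 arrays, the median over the 40 genes was 2.07, 1.74 and 0.94 on the tsA58 line arrays. It was -0.39, -0.40 and 0.50 on the C57BL/6J line arrays and 0.19 and 0.16 on C57BL/6J tissue. On tsA58 tissue it was 0.09 on replicate 1 but -2.13 on replicate 2 and -2.79 on replicate 3. The tsA58 line thus stood highest, both C57BL/6J groups lay in the middle and overlapped, and 2 of the 3 tsA58 tissue arrays stood lowest. Of the 40 genes, 36 had their highest value of all 11 arrays on tsA58 line replicate 1 and the other 4 on replicate 2; 32 had their lowest on tsA58 tissue replicate 3, 7 on replicate 2 and 1 on C57BL/6J line replicate 2. All 40 were above the array median on tsA58 tissue replicate 1, 27 on replicate 2 and 14 on replicate 3, so on the last of these most lay at background.

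**Figure D2:**
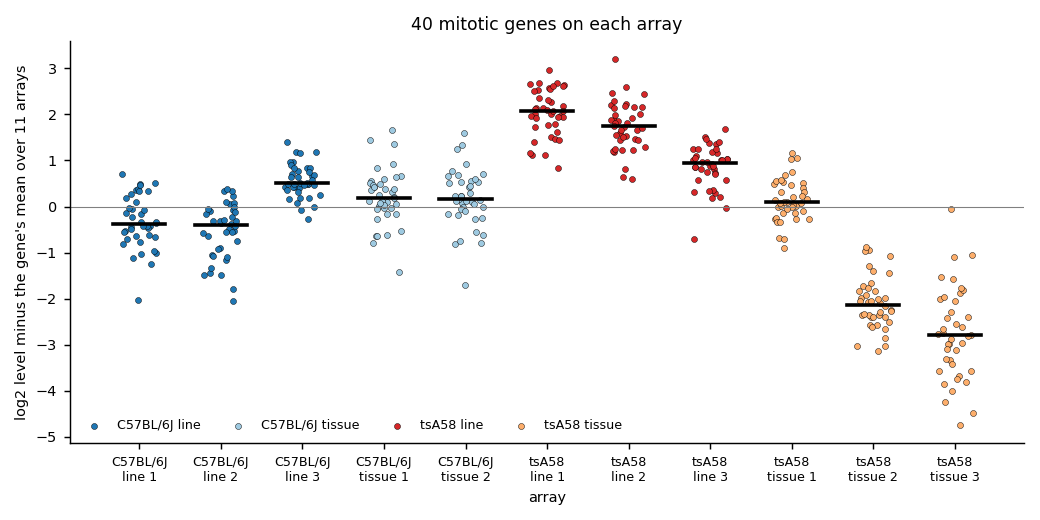
Each point is 1 of 40 mitotic genes on 1 array; the vertical axis is its log2 level minus that gene's mean over 11 arrays, colours mark the 4 groups and black bars the medians over genes. The tsA58 line arrays have medians of 2.07, 1.74 and 0.94, and tsA58 tissue replicate 1 (0.09) sits apart from replicates 2 and 3 (-2.13 and -2.79).

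In 3 of the 4 groups the median spread between arrays was wider for these genes than for all tested genes, and in C57BL/6J tissue it was narrower. Their median SD within a group was 1.63 in tsA58 tissue (all tested genes 0.26), 0.65 in the tsA58 line (0.31), 0.59 in the C57BL/6J line (0.19) and 0.06 in C57BL/6J tissue (0.12). On tsA58 tissue replicate 1, 38 of the 40 (95%) were at least 2-fold above both other arrays of that tissue, as were 3.43% of all tested genes. The exceptions were Foxm1 and Smc4. On tsA58 line replicate 3, 16 (40.0%) were at least 2-fold below both other arrays, against 6.98% of all genes. On C57BL/6J line replicate 3, 14 (35.0%) were at least 2-fold above both others, against 0.918% of all genes. Set against the mean of C57BL/6J tissue, tsA58 tissue replicate 1 differed by a median of -0.02 over the 40 genes, with single genes from -1.09 (Spc25) to 1.55 (Espl1). The mean of replicates 2 and 3 differed by a median of -2.71, from -4.47 to 0.13, and was above C57BL/6J tissue in 1 gene, Espl1.

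**Figure D3:**
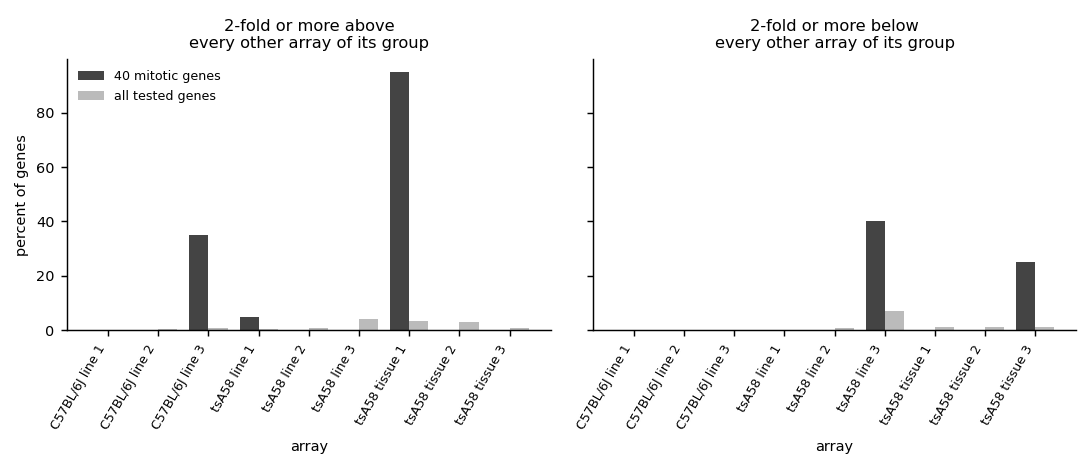
Bars give the percent of genes at least 2-fold above (left) or below (right) every other array of the same group, for 40 mitotic genes (dark) and all tested genes (light), on the arrays of the 3 groups with 3 arrays. On tsA58 tissue replicate 1 the dark bar reaches 95% and the light bar 3.43%.

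Other measures of those tissue arrays were as follows. On tsA58 tissue replicates 1, 2 and 3 the mean level of 10 gastric mucosa markers was 9.82, 12.05 and 10.16, that of 8 macrophage and leukocyte markers 7.2, 8.19 and 7.54, and that of 5 exocrine pancreas markers 4.67, 9.97 and 5.29. The 6 endothelial markers averaged 6.81, 6.72 and 5.96, the 4 glial markers 7.70, 7.03 and 6.86, and the 8 smooth muscle markers 12.89, 12.76 and 13.06. All 10 gastric mucosa markers and 7 of the 8 macrophage and leukocyte markers were above the array median on each tissue array of either strain. In C57BL/6J tissue the gastric mucosa mean was 10.63 and 10.42 and the leukocyte mean 6.76 and 6.87. Replicate 1, highest for the mitotic genes, had the lowest mean of the 3 for mucosa, leukocyte and pancreas markers. It had the highest mean for endothelial and glial markers and for 6 enteric neuron markers (10.31, beside 9.51 and 10.24). Single genes did not all follow the mean of their list, as Tff1, Tff2 and Krt8 of the mucosa list were lowest on replicate 3. In C57BL/6J tissue the pancreas mean was 10.85 on replicate 1 and 5.74 on replicate 2, while the mitotic medians were close (0.19 and 0.16). In RNA quality, the log2 ratio of the 3′ to the 5′ actin probe set was 0.47, 0.43 and 0.41 on these 3 arrays, 1.02 and 0.84 on C57BL/6J tissue, 0.99 to 1.04 on the C57BL/6J line, and 0.51, 0.85 and 0.05 on the tsA58 line. The hybridisation controls averaged 7.21, 8.82 and 9.47 on tsA58 tissue and 10.81 and 10.63 on C57BL/6J tissue. The part of these cell types and of RNA quality in the mitotic levels was not tested. In whole tissue, fewer dividing cells and less RNA per dividing cell cannot be told apart.

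The first comparison asked how the tsA58 line differed from its tissue. 39 of the 40 mitotic genes were called higher in the line and 0 lower (limma; 39 higher and 0 lower at an unadjusted p below 0.05), against 12.8% of all tested genes called higher and 18.9% called lower. The median difference was 3.13, against -1e-04 over all genes. In 36 genes every line array lay above every tissue array, as in 23.8% of all genes; the other 4 overlapped. The exception to the call was Smc4, a condensin ATPase, at 0.83 ± 0.47 (adjusted p = 0.169). This rested on the probe set used, since its other probe sets gave 1.28 and 1.73. All 40 genes were called with the mean of a gene's probe sets or with the probe set of highest interquartile range. Leaving out single arrays left between 34 and 40 called. It was 39 without tsA58 tissue replicate 1, 36 without replicate 2 and 35 without replicate 3, with medians of 4.01, 2.85 and 2.57. A fit of these 2 groups alone called 35 higher and 0 lower (limma; 39 and 0 at an unadjusted p below 0.05), against 11.7% and 17.4% of all genes. The line mean exceeded tissue replicate 1 alone by a median of 1.44 and the mean of the other tissue arrays by 4.01.

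In C57BL/6J few mitotic genes were called between the line and its own tissue. In that strain 1 gene was called higher, Espl1 (separase, the protease that opens cohesin), at 1.63 ± 0.53 (adjusted p = 0.0264), and 1 lower, Smc2 (a condensin ATPase), at -2.04 ± 0.70 (adjusted p = 0.034), against 17.5% of all genes called higher and 16.6% lower. The median over the 40 was -0.33 (0.12 over all genes), with 17 genes above 0. Every line array lay above both tissue arrays in 8 genes (Bub1b, Aurka, Tpx2, Foxm1, Aurkb, Ube2c, Espl1 and Racgap1) and below both in 14, shares of 20% and 35.0% beside 41.9% and 33.2% of all genes. The 14 were Ccna2, Birc5, Cdc20, Cenpf, Ndc80, Nuf2, Spc25, Prc1, Ect2, Nusap1, Mki67, Ncapg, Smc2 and Smc4. The members thus lay on both sides. A fit of these 2 groups alone, whose spread leaves out the tsA58 arrays, called 3 higher (Aurka 1.16 ± 0.29, Tpx2 1.37 ± 0.25, Espl1 1.63 ± 0.39) and 5 lower (Ccna2 -2.31 ± 0.42, Nuf2 -1.40 ± 0.49, Spc25 -1.44 ± 0.36, Mki67 -2.39 ± 0.44, Smc2 -2.04 ± 0.53), against 18.2% and 17.8% of all genes. With the 4-group fit, leaving out single arrays while keeping at least 2 in each group gave from 0 to 7 calls. Without tsA58 tissue replicate 1 it was 3 higher and 4 lower, beside 17.6% and 16.8% of all genes. Without replicate 3 of that tissue it was 1 higher and 3 lower, beside 17.5% and 16.5%. Without C57BL/6J line replicate 1 it was 1 higher, beside 16.9%, and without line replicate 3 it was 1 lower, beside 16.5%. It was 0 without line replicate 2 (limma, with 1 higher and 1 lower at an unadjusted p below 0.05), beside 17% and 15.3%. Leaving out C57BL/6J tissue replicate 1 or 2 kept 1 array of that group, with a median of -0.30 or -0.33. Centring on hybridisation controls turned the direction of the median, with 9 called higher and 0 lower (15 and 0 at an unadjusted p below 0.05), against 37.5% and 5.1% of all genes, and a median of 0.94 beside 1.38 over all genes.

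**Figure D4:**
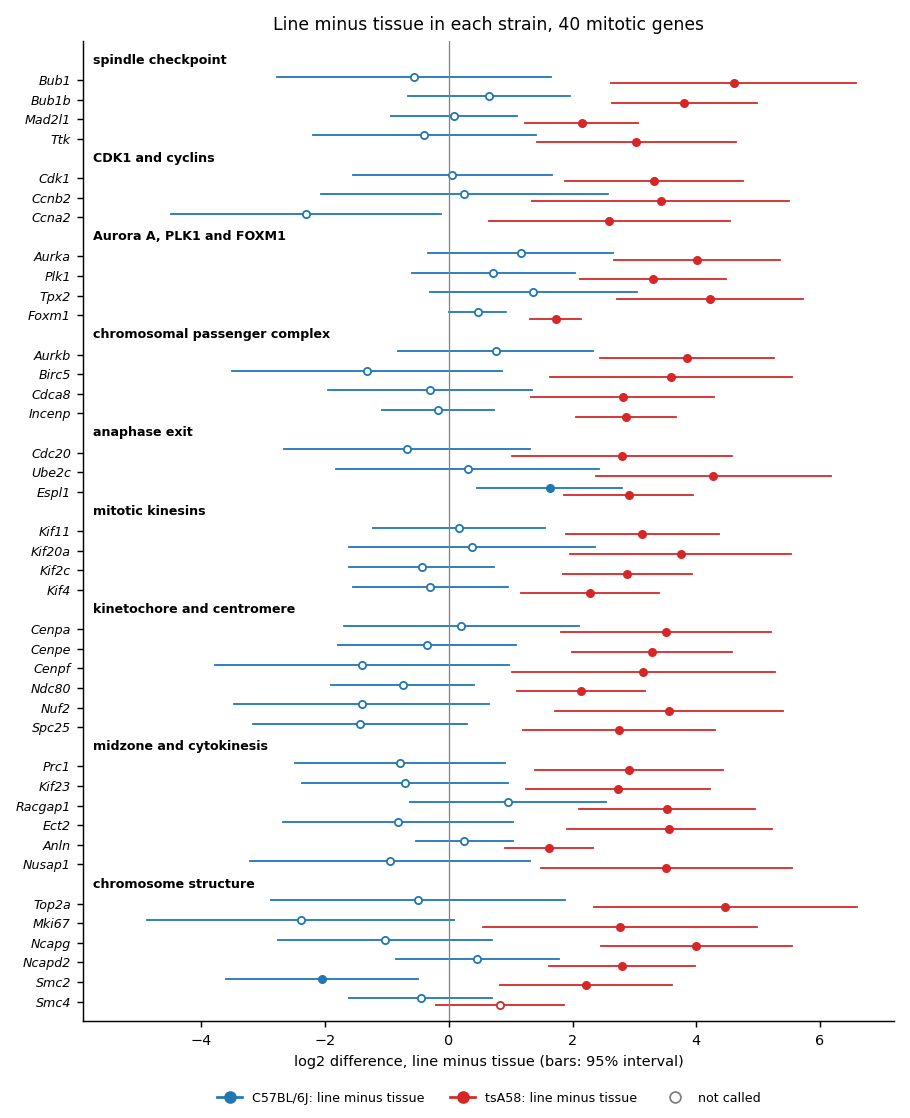
Line minus tissue for 40 mitotic genes in C57BL/6J (blue) and tsA58 (red), in log2 units with 95% intervals, ordered by role; filled circles are called and open circles are not. In tsA58 39 of the 40 are filled and all lie right of 0, while in C57BL/6J 17 lie right of 0 and 2 are filled.

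The difference between the strains in that line-tissue difference was tested in the same model. All 40 genes were above 0 with a median of 3.32 (-0.18 over all genes); 30 were called higher in tsA58 and 0 lower (38 and 0 at an unadjusted p below 0.05), against 7.3% and 13% of all genes. It was called for all 4 checkpoint genes and all 4 genes of the chromosomal passenger complex. The 10 that missed the call were Ccnb2, Tpx2, Cdc20, Espl1, Kif20a, Cenpa, Racgap1, Anln, Ncapd2 and Smc4. In the fits that follow, 4.79% and 5.45% of all genes were called higher without C57BL/6J line replicates 1 and 2. The shares were 5.15% and 5.85% without tsA58 line replicates 1 and 2, and 7.51% and 5.77% without tsA58 tissue replicates 2 and 3. Without single arrays the count ran from 12 to 38 in the fits that kept at least 2 arrays in each group. It was 38 without tsA58 tissue replicate 1, against 7.82% of all genes called higher. It was 12 without C57BL/6J line replicate 1 or 2 or tsA58 line replicate 1. It was 15 without tsA58 line replicate 2 or tsA58 tissue replicate 2, and 17 without tsA58 tissue replicate 3. Leaving out C57BL/6J tissue replicate 1 or 2 kept 1 array of that group, and the median difference was 3.27 or 3.37.

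Between the 2 lines all 40 differences were above 0 (tsA58 minus C57BL/6J), with a median of 1.64 against -0.04 over all genes. The call was made for 9 as higher and 0 as lower (25 and 0 at an unadjusted p below 0.05), against 8.38% and 5.77% of all genes. The 9 were Bub1, Plk1, Aurkb, Incenp, Espl1, Kif2c, Kif4, Ncapg and Smc2. Every tsA58 array lay above every C57BL/6J array in 31 genes (77.5%, against 18.4% of all genes) and the other 9 overlapped. A fit of the 2 lines alone called 26 higher and 0 lower, against 7.65% and 5.25% of all genes; the tissue arrays enter the 4-group fit here only through its shared spread. Without single arrays the count ran from 1 to 32. It was 32 without tsA58 tissue replicate 1, 15 without tsA58 tissue replicate 3 and 19 without tsA58 line replicate 3. It was 2 without tsA58 line replicate 2, and 1 without tsA58 line replicate 1 or C57BL/6J line replicate 1 or 2. In that order 8.84%, 8.32%, 12.7%, 6.25%, 6.07%, 5.77% and 6.73% of all genes were called higher. At counts of 1 and 2 the share of the mitotic genes lay below that of all genes. On tsA58 line replicate 3 the mitotic genes exceeded those on C57BL/6J line replicate 3 by a median of 0.29, with 31 of the 40 above 0.

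Between the 2 tissues 39 of 40 differences were below 0 (tsA58 minus C57BL/6J), with a median of -1.88 against 0.18 over all genes. 5 genes were called lower in tsA58 tissue (Bub1b, Mad2l1, Incenp, Ndc80 and Spc25) and 0 higher (23 lower and 0 higher at an unadjusted p below 0.05), against 3.21% of all genes called lower and 9.56% higher. Every tsA58 tissue array lay below both C57BL/6J arrays in 20 genes (50.0%, against 16.4% of all genes) and the other 20 overlapped. Without tsA58 tissue replicate 1 the count was 34, against 4.11% of all genes called lower. A fit of the 2 tissues alone called 1 lower, Incenp, and 0 higher (limma, with 9 lower and 0 higher at an unadjusted p below 0.05), against 2.26% and 8.18% of all genes. The Incenp difference was -1.72 with the probe set used. Its other probe sets that passed the filter gave -0.34, -0.15 and -0.50. With the actin 3′ to 5′ ratio as a covariate 0 were called in either direction (limma; 2 lower and 0 higher at an unadjusted p below 0.05), and the median was -1.14. The count was 1 without tsA58 tissue replicate 2 or 3, 3 without C57BL/6J line replicate 1, and 0 without either C57BL/6J tissue array (8 lower at an unadjusted p below 0.05 in each case). Of all genes, 3.91% and 2.58% were called lower without tsA58 tissue replicates 2 and 3, and 2.74% without C57BL/6J line replicate 1. Centring the arrays on their hybridisation controls turned the direction: 4 of the 40 were then called higher and 0 lower (5 and 0 at an unadjusted p below 0.05), against 92.2% and 0.128% of all genes. The median of the 40 was then 0.34, while the median of all genes moved to 2.40, so the mitotic median lay below that of all genes under both scalings. These 5 comparisons share arrays, and their counts are not independent of each other.

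**Figure D5:**
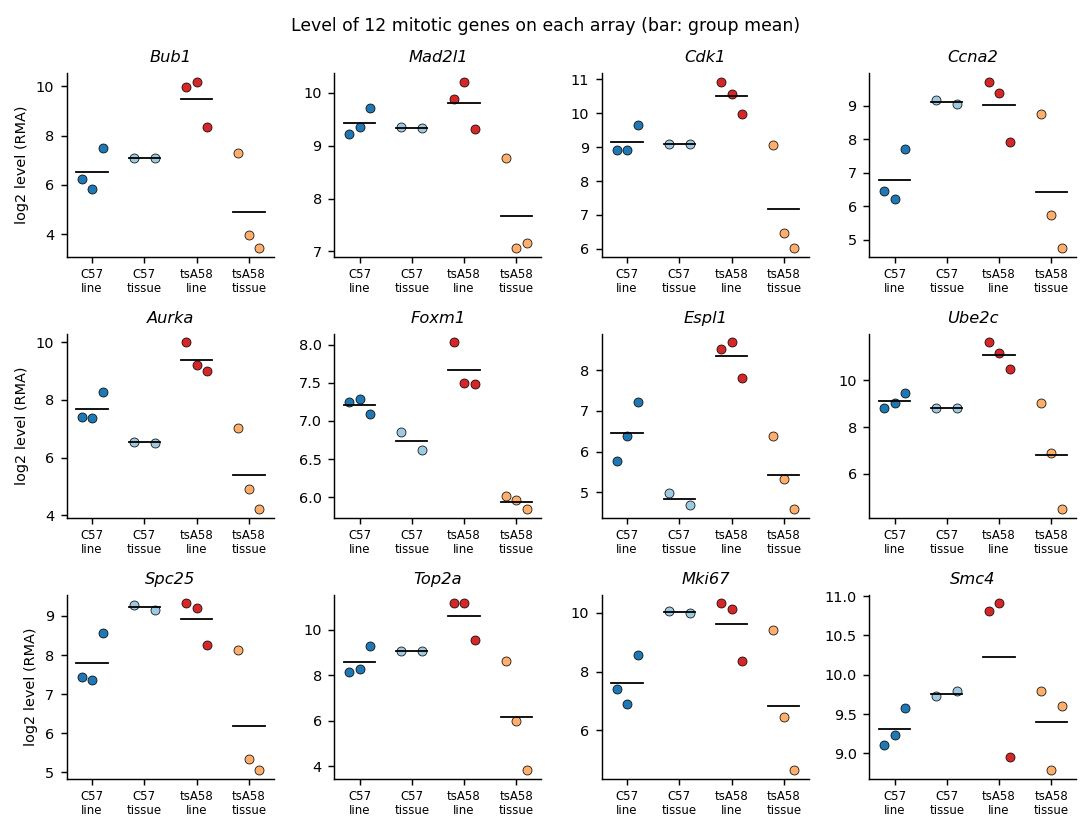
Log2 level of 12 mitotic genes on each of the 11 arrays, by group; points are arrays in replicate order and bars are group means (3, 2, 3 and 3 arrays). For Bub1 the tsA58 tissue arrays read 7.31, 3.97 and 3.42, all below the tsA58 line arrays at 9.96, 10.19 and 8.37, and Foxm1 is the gene whose tsA58 tissue arrays lie closest together.

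Among the checkpoint genes, Bub1 encodes a kinase that recruits other checkpoint proteins to kinetochores. Bub1 read 9.96, 10.19 and 8.37 on the tsA58 line arrays, 7.31, 3.97 and 3.42 on tsA58 tissue, 6.23, 5.83 and 7.48 on the C57BL/6J line and 7.08 and 7.08 on C57BL/6J tissue. Each tsA58 line array lay above each other array, and 2 of the tsA58 tissue arrays lay below the array median. Mad2l1 encodes MAD2, which binds CDC20 in the inhibitory complex. Mad2l1 read 9.88, 10.22 and 9.32 on the tsA58 line arrays, 8.76, 7.05 and 7.16 on tsA58 tissue, 9.21, 9.36 and 9.71 on the C57BL/6J line and 9.36 and 9.33 on C57BL/6J tissue. Its tsA58 tissue arrays lay below every other array, and both C57BL/6J groups overlapped with the tsA58 line. Bub1b encodes BUBR1, another part of the inhibitory complex. Bub1b read 9.57, 9.17 and 8.52 on the tsA58 line arrays, 6.76, 4.42 and 4.66 on tsA58 tissue, 7.96, 7.66 and 8.39 on the C57BL/6J line and 7.27 and 7.43 on C57BL/6J tissue. In this gene both lines lay above both tissues, and tsA58 tissue lay below C57BL/6J tissue. Ttk encodes MPS1, the kinase that starts checkpoint signalling. In the tsA58 strain, line minus tissue was 4.61 ± 0.89 for Bub1 (adjusted p = 0.00177), 3.81 ± 0.53 for Bub1b (adjusted p = 0.000212), 2.15 ± 0.41 for Mad2l1 (adjusted p = 0.0016) and 3.03 ± 0.73 for Ttk (adjusted p = 0.00597). In C57BL/6J it was -0.57 ± 1.00 for Bub1 (adjusted p = 0.679), 0.65 ± 0.59 for Bub1b (adjusted p = 0.401), 0.08 ± 0.46 for Mad2l1 (adjusted p = 0.9) and -0.40 ± 0.81 for Ttk (adjusted p = 0.723). The C57BL/6J intervals (95%) ran from -2.78 to 1.65 for Bub1 and from -0.93 to 1.10 for Mad2l1. Between the lines, tsA58 minus C57BL/6J, the difference was 2.99 ± 0.89 for Bub1 (adjusted p = 0.0351), 1.08 ± 0.53 for Bub1b (adjusted p = 0.166), 0.38 ± 0.41 for Mad2l1 (adjusted p = 0.549) and 2.0 ± 0.73 for Ttk (adjusted p = 0.0715). Between the tissues, tsA58 minus C57BL/6J, it was -2.18 ± 1.00 for Bub1 (adjusted p = 0.153), -2.07 ± 0.59 for Bub1b (adjusted p = 0.033), -1.69 ± 0.46 for Mad2l1 (adjusted p = 0.0272) and -1.43 ± 0.81 for Ttk (adjusted p = 0.25). All 4 differences between the tissues were below 0, and the call was made for Bub1b and Mad2l1. For the line-tissue difference, tsA58 minus C57BL/6J was 5.17 ± 1.34 for Bub1 (adjusted p = 0.0202), 3.16 ± 0.80 for Bub1b (adjusted p = 0.0182), 2.06 ± 0.62 for Mad2l1 (adjusted p = 0.0353) and 3.43 ± 1.09 for Ttk (adjusted p = 0.0459). The other Bub1 probe set, above the array median on 2 arrays, gave 1.60 for line minus tissue in tsA58 and -0.06 in C57BL/6J. It gave 0.89 between the lines, -0.77 between the tissues and 1.66 for the difference between the strains.

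Cdk1, the mitotic kinase, and its cyclins followed. Cdk1 read 10.94, 10.58 and 9.99 on the tsA58 line arrays, 9.08, 6.47 and 6.01 on tsA58 tissue, 8.92, 8.91 and 9.67 on the C57BL/6J line and 9.10 and 9.10 on C57BL/6J tissue. The tsA58 line arrays were the highest and tsA58 tissue replicates 2 and 3 the lowest, while the C57BL/6J line and tissue overlapped. Ccna2 encodes cyclin A2, which acts from S phase into early mitosis. Ccna2 read 9.72, 9.38 and 7.92 on the tsA58 line arrays, 8.76, 5.74 and 4.73 on tsA58 tissue, 6.46, 6.22 and 7.71 on the C57BL/6J line and 9.17 and 9.04 on C57BL/6J tissue. Unlike Cdk1, every C57BL/6J line array lay below both tissue arrays of that strain, which lay within the range of the tsA58 line. Ccnb2 encodes cyclin B2. The tsA58 line exceeded its tissue by 3.32 ± 0.65 for Cdk1 (adjusted p = 0.00181), 3.42 ± 0.94 for Ccnb2 (adjusted p = 0.0118) and 2.60 ± 0.88 for Ccna2 (adjusted p = 0.0319). The same difference in C57BL/6J was 0.06 ± 0.72 for Cdk1 (adjusted p = 0.954), 0.25 ± 1.05 for Ccnb2 (adjusted p = 0.864) and -2.31 ± 0.98 for Ccna2 (adjusted p = 0.0779). The tsA58 line minus the C57BL/6J line gave 1.34 ± 0.65 for Cdk1 (adjusted p = 0.161), 0.95 ± 0.94 for Ccnb2 (adjusted p = 0.507) and 2.21 ± 0.88 for Ccna2 (adjusted p = 0.0951). None of these cyclin and Cdk1 differences between the lines was called in the 4-group fit; Cdk1 and Ccna2 were called in the fit of the 2 lines alone, and Ccnb2 was not. The tsA58 tissue minus the C57BL/6J tissue gave -1.92 ± 0.72 for Cdk1 (adjusted p = 0.0871), -2.22 ± 1.05 for Ccnb2 (adjusted p = 0.163) and -2.69 ± 0.98 for Ccna2 (adjusted p = 0.0793). The tsA58 line-tissue difference minus that of C57BL/6J was 3.26 ± 0.97 for Cdk1 (adjusted p = 0.0353), 3.17 ± 1.40 for Ccnb2 (adjusted p = 0.131) and 4.91 ± 1.32 for Ccna2 (adjusted p = 0.0236).

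Aurora A and its activator TPX2 build the spindle poles, PLK1 drives mitotic entry and exit, and FOXM1 is the transcription factor that switches on many of the genes described here. Aurka read 9.99, 9.20 and 8.99 on the tsA58 line arrays, 7.04, 4.91 and 4.20 on tsA58 tissue, 7.42, 7.36 and 8.28 on the C57BL/6J line and 6.53 and 6.52 on C57BL/6J tissue. Every array of either line lay above every array of either tissue. Foxm1 read 8.03, 7.50 and 7.48 on the tsA58 line arrays, 6.01, 5.97 and 5.84 on tsA58 tissue, 7.25, 7.29 and 7.09 on the C57BL/6J line and 6.85 and 6.62 on C57BL/6J tissue. Foxm1 had the narrowest tsA58 tissue arrays of all 40 genes, and they lay below every other array, replicate 1 included. Line minus tissue in tsA58 was 4.01 ± 0.60 for Aurka (adjusted p = 0.000352), 3.29 ± 0.53 for Plk1 (adjusted p = 0.000563), 4.22 ± 0.68 for Tpx2 (adjusted p = 0.000526) and 1.73 ± 0.18 for Foxm1 (adjusted p = 3.34e-05). For Foxm1 the 95% interval was 1.32 to 2.14. Line minus tissue in C57BL/6J was 1.16 ± 0.67 for Aurka (adjusted p = 0.184), 0.72 ± 0.60 for Plk1 (adjusted p = 0.353), 1.37 ± 0.76 for Tpx2 (adjusted p = 0.164) and 0.47 ± 0.21 for Foxm1 (adjusted p = 0.0862). All 4 were above 0 in C57BL/6J without being called. Set line against line, tsA58 minus C57BL/6J was 1.71 ± 0.60 for Aurka (adjusted p = 0.0647), 1.91 ± 0.53 for Plk1 (adjusted p = 0.0269), 1.21 ± 0.68 for Tpx2 (adjusted p = 0.222) and 0.46 ± 0.18 for Foxm1 (adjusted p = 0.0996). Set tissue against tissue, tsA58 minus C57BL/6J was -1.14 ± 0.67 for Aurka (adjusted p = 0.267), -0.67 ± 0.60 for Plk1 (adjusted p = 0.472), -1.64 ± 0.76 for Tpx2 (adjusted p = 0.154) and -0.80 ± 0.21 for Foxm1 (adjusted p = 0.0222). Foxm1 passed the adjusted p between the tissues but not the 2-fold threshold. From strain to strain the line-tissue difference, tsA58 minus C57BL/6J, was 2.85 ± 0.91 for Aurka (adjusted p = 0.0452), 2.57 ± 0.80 for Plk1 (adjusted p = 0.0414), 2.85 ± 1.01 for Tpx2 (adjusted p = 0.0665) and 1.26 ± 0.28 for Foxm1 (adjusted p = 0.0104).

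The chromosomal passenger complex joins Aurora B kinase to INCENP, survivin (Birc5) and borealin (Cdca8) and corrects faulty attachments. Birc5 read 9.94, 9.61 and 8.44 on the tsA58 line arrays, 7.88, 5.64 and 3.70 on tsA58 tissue, 6.25, 5.93 and 7.79 on the C57BL/6J line and 8.03 and 7.93 on C57BL/6J tissue. Birc5 lay lower on every C57BL/6J line array than on the tissue of that strain. Aurkb read 9.04, 8.87 and 7.66 on the tsA58 line arrays, 6.26, 4.12 and 3.66 on tsA58 tissue, 6.07, 6.03 and 7.31 on the C57BL/6J line and 5.78 and 5.65 on C57BL/6J tissue. Aurkb showed the opposite order, with each C57BL/6J line array above both tissue arrays. In the tsA58 strain, line minus tissue was 3.85 ± 0.64 for Aurkb (adjusted p = 0.000646), 3.59 ± 0.88 for Birc5 (adjusted p = 0.00679) and 2.87 ± 0.37 for Incenp (adjusted p = 0.000118). In C57BL/6J it was 0.76 ± 0.71 for Aurkb (adjusted p = 0.415), -1.32 ± 0.99 for Birc5 (adjusted p = 0.302) and -0.18 ± 0.41 for Incenp (adjusted p = 0.754). Between the lines, tsA58 minus C57BL/6J, the difference was 2.06 ± 0.64 for Aurkb (adjusted p = 0.0402), 2.67 ± 0.88 for Birc5 (adjusted p = 0.0517) and 1.32 ± 0.37 for Incenp (adjusted p = 0.0258). Aurkb and Incenp were called between the lines, and Birc5 missed the threshold. Between the tissues, tsA58 minus C57BL/6J, it was -1.04 ± 0.71 for Aurkb (adjusted p = 0.342), -2.24 ± 0.99 for Birc5 (adjusted p = 0.138) and -1.72 ± 0.41 for Incenp (adjusted p = 0.0155). For the line-tissue difference, tsA58 minus C57BL/6J was 3.09 ± 0.95 for Aurkb (adjusted p = 0.0403), 4.91 ± 1.32 for Birc5 (adjusted p = 0.0238) and 3.05 ± 0.55 for Incenp (adjusted p = 0.00429). Cdca8 was called in the tsA58 line-tissue comparison and in the difference between the strains only.

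Of the genes of anaphase and mitotic exit, Cdc20 encodes the activator that the checkpoint holds back. Ube2c read 11.62, 11.16 and 10.47 on the tsA58 line arrays, 9.03, 6.91 and 4.48 on tsA58 tissue, 8.83, 9.03 and 9.46 on the C57BL/6J line and 8.80 and 8.81 on C57BL/6J tissue. The tsA58 line arrays lay above all others and the C57BL/6J line and tissue stayed near each other, with the line arrays just above. Espl1 read 8.53, 8.68 and 7.80 on the tsA58 line arrays, 6.38, 5.33 and 4.58 on tsA58 tissue, 5.76, 6.39 and 7.23 on the C57BL/6J line and 4.97 and 4.69 on C57BL/6J tissue. Espl1 differed from most of the set: C57BL/6J tissue was low, the line of that strain lay above it on every array, and tsA58 tissue overlapped both. The tsA58 line exceeded its tissue by 2.80 ± 0.80 for Cdc20 (adjusted p = 0.015), 4.28 ± 0.86 for Ube2c (adjusted p = 0.00211) and 2.91 ± 0.47 for Espl1 (adjusted p = 0.000566). The same difference in C57BL/6J was -0.67 ± 0.90 for Cdc20 (adjusted p = 0.575), 0.30 ± 0.96 for Ube2c (adjusted p = 0.821) and 1.63 ± 0.53 for Espl1 (adjusted p = 0.0264). The tsA58 line minus the C57BL/6J line gave 0.72 ± 0.80 for Cdc20 (adjusted p = 0.563), 1.97 ± 0.86 for Ube2c (adjusted p = 0.122) and 1.88 ± 0.47 for Espl1 (adjusted p = 0.0165). Espl1 was called in both strains and between the lines. The tsA58 tissue minus the C57BL/6J tissue gave -2.75 ± 0.90 for Cdc20 (adjusted p = 0.0537), -2.0 ± 0.96 for Ube2c (adjusted p = 0.171) and 0.60 ± 0.53 for Espl1 (adjusted p = 0.465). Espl1 was the 1 gene of the 40 whose difference between the tissues was above 0. The tsA58 line-tissue difference minus that of C57BL/6J was 3.47 ± 1.20 for Cdc20 (adjusted p = 0.0615), 3.97 ± 1.28 for Ube2c (adjusted p = 0.0484) and 1.28 ± 0.71 for Espl1 (adjusted p = 0.22). The strains' line-tissue differences in Espl1 were not called different (95% interval -0.28 to 2.84).

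The mitotic kinesins slide, bundle or depolymerise spindle microtubules; Kif11 encodes the motor that separates the poles and Kif20a a motor of the midzone. Kif11 read 8.18, 7.97 and 6.98 on the tsA58 line arrays, 6.01, 4.02 and 3.72 on tsA58 tissue, 6.07, 5.58 and 6.74 on the C57BL/6J line and 6.07 and 5.86 on C57BL/6J tissue. The tsA58 line arrays stood above all others, and C57BL/6J line and tissue overlapped. Line minus tissue in tsA58 was 3.13 ± 0.56 for Kif11 (adjusted p = 0.00107) and 3.75 ± 0.80 for Kif20a (adjusted p = 0.00315). Line minus tissue in C57BL/6J was 0.17 ± 0.62 for Kif11 (adjusted p = 0.852) and 0.37 ± 0.90 for Kif20a (adjusted p = 0.766). Set line against line, tsA58 minus C57BL/6J was 1.58 ± 0.56 for Kif11 (adjusted p = 0.0652) and 1.51 ± 0.80 for Kif20a (adjusted p = 0.2). Kif2c, a microtubule depolymerase, rose by 1.95 ± 0.47 between the lines and Kif4, a chromosome-bound kinesin, by 1.55 ± 0.50. Set tissue against tissue, tsA58 minus C57BL/6J was -1.38 ± 0.62 for Kif11 (adjusted p = 0.148) and -1.86 ± 0.90 for Kif20a (adjusted p = 0.173). From strain to strain the line-tissue difference, tsA58 minus C57BL/6J, was 2.96 ± 0.84 for Kif11 (adjusted p = 0.0287) and 3.37 ± 1.21 for Kif20a (adjusted p = 0.0681). All 4 kinesins were called in the tsA58 line-tissue comparison and none in the C57BL/6J one.

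Of the kinetochore and centromere genes, 5 of the 6 C57BL/6J line minus tissue differences were below 0, with a median of -1.07 and 0 called (limma; 0 at an unadjusted p below 0.05 in either direction). In tsA58 all 6 were called higher in the line, with a median of 3.21. Spc25 encodes a subunit of the NDC80 complex, which holds microtubule ends. Spc25 read 9.33, 9.21 and 8.25 on the tsA58 line arrays, 8.13, 5.34 and 5.05 on tsA58 tissue, 7.43, 7.36 and 8.56 on the C57BL/6J line and 9.28 and 9.16 on C57BL/6J tissue. Both C57BL/6J tissue arrays lay above all 3 line arrays of that strain and above every tsA58 tissue array. The tissues differed by -3.05 ± 0.78 (limma, adjusted p = 0.0214), the widest called difference between them among the 40 genes. The other Spc25 probe set gave -0.24 between the tissues. Cenpf read 9.14, 8.63 and 7.37 on the tsA58 line arrays, 7.79, 4.27 and 3.65 on tsA58 tissue, 5.61, 4.85 and 7.10 on the C57BL/6J line and 7.23 and 7.29 on C57BL/6J tissue. Cenpf, a kinetochore protein of late interphase and mitosis, was high on 1 tsA58 tissue array and below the array median on the other 2. In the tsA58 strain, line minus tissue was 3.51 ± 0.77 for Cenpa (adjusted p = 0.00352), 3.14 ± 0.96 for Cenpf (adjusted p = 0.0202) and 2.14 ± 0.47 for Ndc80 (adjusted p = 0.00344). In C57BL/6J it was 0.21 ± 0.86 for Cenpa (adjusted p = 0.866), -1.40 ± 1.07 for Cenpf (adjusted p = 0.313) and -0.75 ± 0.52 for Ndc80 (adjusted p = 0.269). Between the lines, tsA58 minus C57BL/6J, the difference was 0.84 ± 0.77 for Cenpa (adjusted p = 0.468), 2.52 ± 0.96 for Cenpf (adjusted p = 0.0831) and 1.23 ± 0.47 for Ndc80 (adjusted p = 0.0827). Cenpa encodes the histone H3 variant that marks centromeres. Between the tissues, tsA58 minus C57BL/6J, it was -2.46 ± 0.86 for Cenpa (adjusted p = 0.0676), -2.02 ± 1.07 for Cenpf (adjusted p = 0.216) and -1.66 ± 0.52 for Ndc80 (adjusted p = 0.047). For the line-tissue difference, tsA58 minus C57BL/6J was 3.31 ± 1.15 for Cenpa (adjusted p = 0.0623), 4.55 ± 1.44 for Cenpf (adjusted p = 0.0449) and 2.89 ± 0.70 for Ndc80 (adjusted p = 0.0154). The other Cenpf probe set that passed the filter gave 0.70 for line minus tissue in tsA58 and -0.05 in C57BL/6J. It gave 0.40 between the lines, -0.35 between the tissues and 0.75 for the difference between the strains.

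Midzone and cytokinesis genes were all called higher in the tsA58 line than in tsA58 tissue, 6 of 6 with a median of 3.21, and 0 of 6 in C57BL/6J (limma; 0 at an unadjusted p below 0.05), where 2 lay above 0. PRC1 bundles antiparallel microtubules, and RACGAP1 with KIF23 forms the complex that recruits ECT2 to start the contractile ring. Racgap1 read 9.27, 9.16 and 8.80 on the tsA58 line arrays, 7.45, 4.96 and 4.25 on tsA58 tissue, 7.83, 7.30 and 8.18 on the C57BL/6J line and 6.83 and 6.80 on C57BL/6J tissue. Racgap1 lay higher on the C57BL/6J line arrays than on tissue. Prc1 read 9.71, 9.19 and 8.76 on the tsA58 line arrays, 8.32, 5.41 and 5.19 on tsA58 tissue, 7.05, 7.18 and 8.0 on the C57BL/6J line and 8.12 and 8.28 on C57BL/6J tissue. Prc1 lay the other way in that strain, although both proteins act at the midzone. The tsA58 line exceeded its tissue by 2.91 ± 0.69 for Prc1 (adjusted p = 0.00531) and 3.52 ± 0.64 for Racgap1 (adjusted p = 0.00117). The same difference in C57BL/6J was -0.79 ± 0.77 for Prc1 (adjusted p = 0.432) and 0.96 ± 0.72 for Racgap1 (adjusted p = 0.302). The tsA58 line minus the C57BL/6J line gave 1.81 ± 0.69 for Prc1 (adjusted p = 0.0821) and 1.31 ± 0.64 for Racgap1 (adjusted p = 0.166). The tsA58 tissue minus the C57BL/6J tissue gave -1.89 ± 0.77 for Prc1 (adjusted p = 0.107) and -1.26 ± 0.72 for Racgap1 (adjusted p = 0.247). The tsA58 line-tissue difference minus that of C57BL/6J was 3.70 ± 1.03 for Prc1 (adjusted p = 0.0266) and 2.57 ± 0.96 for Racgap1 (adjusted p = 0.0786). In Anln, the gene of the ring scaffold anillin, the tsA58 line-tissue difference was the smallest of those called, at 1.62 ± 0.32.

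The genes of chromosome structure included both Smc2 and Smc4, partners in condensin. Mki67 encodes Ki-67, the surface coat of mitotic chromosomes and a common marker of cycling cells. Mki67 read 10.33, 10.15 and 8.35 on the tsA58 line arrays, 9.42, 6.47 and 4.65 on tsA58 tissue, 7.42, 6.90 and 8.56 on the C57BL/6J line and 10.06 and 9.99 on C57BL/6J tissue. C57BL/6J tissue lay within the range of the tsA58 line and above every C57BL/6J line array. Smc2 read 9.59, 9.51 and 8.38 on the tsA58 line arrays, 8.27, 6.56 and 6.01 on tsA58 tissue, 5.50, 5.47 and 7.26 on the C57BL/6J line and 7.94 and 8.30 on C57BL/6J tissue. Smc2 lay in the same order in C57BL/6J. Smc4 read 10.81, 10.91 and 8.95 on the tsA58 line arrays, 9.79, 8.79 and 9.61 on tsA58 tissue, 9.11, 9.23 and 9.58 on the C57BL/6J line and 9.73 and 9.79 on C57BL/6J tissue. In Smc4 the tsA58 line overlapped with each of the other groups, since its replicate 3 read below both C57BL/6J tissue arrays. Top2a read 11.17, 11.16 and 9.53 on the tsA58 line arrays, 8.64, 5.99 and 3.82 on tsA58 tissue, 8.14, 8.28 and 9.30 on the C57BL/6J line and 9.07 and 9.07 on C57BL/6J tissue. In Top2a each tsA58 line array lay above every other array. Line minus tissue in tsA58 was 4.47 ± 0.96 for Top2a (adjusted p = 0.00319), 2.77 ± 1.00 for Mki67 (adjusted p = 0.0416), 4.0 ± 0.70 for Ncapg (adjusted p = 0.000917), 2.21 ± 0.63 for Smc2 (adjusted p = 0.0138) and 0.83 ± 0.47 for Smc4 (adjusted p = 0.169). Line minus tissue in C57BL/6J was -0.49 ± 1.07 for Top2a (adjusted p = 0.739), -2.39 ± 1.12 for Mki67 (adjusted p = 0.104), -1.03 ± 0.78 for Ncapg (adjusted p = 0.308), -2.04 ± 0.70 for Smc2 (adjusted p = 0.034) and -0.45 ± 0.52 for Smc4 (adjusted p = 0.514). Set line against line, tsA58 minus C57BL/6J was 2.05 ± 0.96 for Top2a (adjusted p = 0.149), 1.98 ± 1.00 for Mki67 (adjusted p = 0.178), 2.63 ± 0.70 for Ncapg (adjusted p = 0.0215), 3.08 ± 0.63 for Smc2 (adjusted p = 0.00614) and 0.92 ± 0.47 for Smc4 (adjusted p = 0.181). The interval (95%) of the tsA58 line-tissue difference in Smc4 was -0.20 to 1.86. Its other probe sets gave 1.28 and 1.73 in that comparison and 0.59 and -3.54 in C57BL/6J. Between the tissues they gave 0.19 and -2.84, and for the difference between the strains 0.68 and 5.27. Set tissue against tissue, tsA58 minus C57BL/6J was -2.92 ± 1.07 for Top2a (adjusted p = 0.0813), -3.18 ± 1.12 for Mki67 (adjusted p = 0.0693), -2.40 ± 0.78 for Ncapg (adjusted p = 0.0528), -1.18 ± 0.70 for Smc2 (adjusted p = 0.269) and -0.36 ± 0.52 for Smc4 (adjusted p = 0.673). From strain to strain the line-tissue difference, tsA58 minus C57BL/6J, was 4.97 ± 1.44 for Top2a (adjusted p = 0.0318), 5.16 ± 1.5 for Mki67 (adjusted p = 0.0319), 5.03 ± 1.05 for Ncapg (adjusted p = 0.0079), 4.26 ± 0.94 for Smc2 (adjusted p = 0.0103) and 1.28 ± 0.70 for Smc4 (adjusted p = 0.216). Ncapg, a condensin subunit, was called in each comparison except C57BL/6J line against tissue and tissue against tissue.

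Other genes of mitosis, listed by function, were counted in the same way; 98 of 101 were tested. Of these, 65 were called higher in the tsA58 line than in tsA58 tissue and 2 lower, beside 12.8% and 18.9% of all tested genes. Of 40 further spindle and kinetochore genes 34 were called higher and 0 lower (36 and 0 at an unadjusted p below 0.05 by limma), led by Ckap2 at 3.90 ± 0.66, Trip13, an ATPase that takes the checkpoint complex apart, at 3.71 ± 0.56, and Hmmr at 3.66 ± 0.65. Of 34 further genes of entry, exit and cytokinesis 22 were called higher and 0 lower (24 and 0 at an unadjusted p below 0.05), with Cep55, which acts in abscission, at 4.24 ± 0.94 and Cdca5 (sororin, a cohesin protector) at 4.13 ± 0.74. Of 11 condensin and cohesin genes 4 were called higher and 0 lower (6 and 1 at an unadjusted p below 0.05), all 4 of them condensin subunits: Ncaph at 2.83 ± 0.46, Ncapg2 at 2.53 ± 0.57, Ncapd3 at 2.06 ± 0.35 and Ncaph2.

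Among 13 regulators of these promoters, 5 were called higher in the tsA58 line than in tissue and 2 lower, beside 12.8% and 18.9% of all tested genes. The share of the 13 called lower lay below that of all genes. Mybl2 (B-MYB, which joins MuvB to activate mitotic genes) rose by 2.43 ± 0.40, Rbl1 (the pocket protein p107) by 2.22 ± 0.54 and Lin9 (a MuvB subunit) by 1.82 ± 0.45; Tfdp2 and Rb1 were the 2 called lower. In C57BL/6J 4 of the 13 were called higher, among them Rbl2 (the pocket protein p130) at 1.47 ± 0.38 and Tfdp1 at 1.25 ± 0.29, and 1 lower, Rb1 at -1.61 ± 0.35; of all tested genes 17.5% were called higher and 16.6% lower there, which the counts of this and the next lists are to be read against. The other lists in that comparison had 0 higher and 2 lower of 40 spindle and kinetochore genes (3 and 3 at an unadjusted p below 0.05), namely Ska1 at -2.43 ± 0.88 and Cenpk at -2.39 ± 0.83. They had 3 higher and 1 lower of 34, with Anapc1 at 2.14 ± 0.18, Fzr1 (CDH1, the late activator of the anaphase-promoting complex) at 1.84 ± 0.31 and Fbxo5 (EMI1, its inhibitor) at -1.82 ± 0.49. Of the 11 condensin and cohesin genes 0 were higher and 3 lower (1 and 3 at an unadjusted p below 0.05): Nipbl, the cohesin loader, at -3.30 ± 0.42, Stag2 at -1.13 ± 0.40 and Stag1 at -1.02 ± 0.32.

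Between the lines 35 of the 98 were called higher in tsA58 and 0 lower (59 and 2 at an unadjusted p below 0.05), beside 8.38% and 5.77% of all genes, among them Zwilch at 2.84 ± 0.58 and Kntc1 at 2.81 ± 0.54, subunits of the complex that brings dynein to kinetochores, and Lin9 at 2.48 ± 0.45. Between the tissues 5 were called higher in tsA58 and 7 lower, beside 9.56% and 3.21% of all genes, with Cenpk at -3.39 ± 0.83, Cdca3 at -3.02 ± 0.68 and Rbl2 at 2.55 ± 0.38. In the difference between the strains 46 were called higher and 5 lower, beside 7.3% and 13% of all genes, with Shcbp1 at 5.64 ± 1.36, Cenpk at 5.54 ± 1.11 and Rbl2 at -2.30 ± 0.50. Of the 98 genes 65 were called higher and 2 lower in the tsA58 line-tissue comparison, beside 12.8% and 18.9% of all tested genes. In C57BL/6J 7 were called higher and 7 lower, beside 17.5% and 16.6%. For the mitotic genes read by other probe sets, 32 further probe sets of 21 of the genes passed the filter. The sign matched the probe set used here in all 32 in the tsA58 line-tissue comparison, 27 between the lines and 29 between the tissues. It matched in 24 in C57BL/6J and in 28 for the difference between the strains. Their median differences were 2.42, 1.32, -0.70, 0.30 and 2.18 in that order, beside 3.13, 1.64, -1.88, -0.33 and 3.32 over the 40 genes as used.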

How the data were processed

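Affymetrix whole-genome mouse arrays were read for 11 samples, each from about 50 ng of RNA amplified in 2 rounds per the labels' protocols. The deposited values are log2 intensities that the authors made by RMA (background correction, quantile normalisation and probe summary), per the submitters' processing notes. The sources used here name no version of it. Quantile normalisation gives the arrays like distributions, so a change shared by most genes would not show. Of 45101 probe sets 34945 carried 1 gene symbol, 932 several and 9160 none, and 64 were controls; symbols came from the platform annotation. For each gene the probe set with the highest mean was used, and genes above the array median on at least 2 arrays were tested. One limma model (limma 3.58.1, R 4.3.3) of 4 group means gave the 5 comparisons, with 7 residual degrees of freedom. P-values were Benjamini-Hochberg adjusted over all 13285 genes, with intervals of 95%. The method was tested on simulated data in which genes varied independently and with the same spread in every group. The mitotic genes had a wider spread (median pooled SD 0.98, beside 0.30 over all tested genes). The simulation therefore does not cover them. Summaries used pandas 2.3.3 and numpy 2.4.6 under Python 3.11.15, and plots matplotlib 3.10.9. Described singly were 30 listed members (29 measured), members among the 3 highest or 3 lowest called differences, and the other members of short counts, named after their values were seen. Members, gene lists and rules were chosen with earlier results of these data known. Alternatives were other scalings, filters, probe-set rules, fits, a replicate block and leaving out each array.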

Additional observations from a re-analysis of the deposited data

Results flagged for a closer look

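The line-tissue difference was larger in tsA58 than in C57BL/6J, by limma's interaction term with an adjusted p below 0.05 and at least 2-fold, in 30 of the 40 mitotic genes, against 7.3% of all tested genes. Of the 29 measured genes listed for description in all comparisons, 21 were among them. On the log2 scale the excess in these 21 was 5.17 for Bub1, 3.16 for Bub1b, 2.06 for Mad2l1, 3.43 for Ttk, 3.26 for Cdk1, 4.91 for Ccna2, 2.85 for Aurka. It was 2.57 for Plk1, 1.26 for Foxm1, 3.09 for Aurkb, 4.91 for Birc5, 3.05 for Incenp, 3.97 for Ube2c, 2.96 for Kif11. It was 4.55 for Cenpf, 2.89 for Ndc80, 3.70 for Prc1, 4.97 for Top2a, 5.16 for Mki67, 5.03 for Ncapg and 4.26 for Smc2. These sizes depend on the probe set. The other probe set that passed the filter gave 0.75 for Cenpf and 1.66 for Bub1. For Bub1b 2 others gave 3.45 and -0.28, and for Kif11 2 others gave 4.27 and 2.16. Over the 32 other probe sets of 21 of the 40 genes the sign matched in 28, with a median of 2.18. Each of the 21 differences draws on all 4 groups. These include C57BL/6J tissue, with 2 arrays, and tsA58 tissue, whose replicate 1 lay above replicates 2 and 3.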

How the results depend on the processing

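The count of mitotic genes called higher in the tsA58 line than in tsA58 tissue was 39, stayed between 34 and 40 without single arrays and was 35 to 40 under 14 other settings. The other counts moved. Leaving out single arrays while keeping at least 2 in each group gave 0 to 7 in C57BL/6J line against tissue (2 in the 4-group fit). It gave 1 to 32 between the lines (9), 1 to 34 between the tissues (5) and 12 to 38 for the difference between the strains (30). In C57BL/6J line against tissue the count was 9 with hybridisation-control centring, 6 with the probe set of highest interquartile range, 8 with only the groups compared and 9 with array weights. All genes called higher there were 37.5%, 22.1%, 18.2% and 18.1%, and lower 5.1%, 20.8%, 17.8% and 18.1%. Between the lines these settings gave 40, 16, 26 and 33, all higher, against 63.4%, 11.2%, 7.65% and 12.9% of all genes called higher. Between the tissues the count was 11 after quantile normalisation again, 8 with cyclic loess, 1 with only the groups compared, 33 with array weights and 0 with the actin ratio as a covariate (limma; 2 lower at an unadjusted p below 0.05), against 4.52%, 4.09%, 2.26%, 4.95% and 3.04% of all genes called lower. Hybridisation-control centring gave 15 for the difference between the strains, all higher, against 0.828% of all genes. It moved the medians of all genes to 1.38, 0.63, 1.54, 2.40 and -0.82 in the order C57BL/6J line against tissue, tsA58 line against tissue, lines, tissues and difference between the strains. Leaving out tsA58 line replicate 3 and tsA58 tissue replicate 1 together, chosen after seeing the data, gave 9, 33 and 36 in C57BL/6J, between the lines and between the tissues. The 9 were 3 higher and 6 lower, beside 18.2% and 17.6% of all genes. The 33 were all higher, beside 13.2% of all genes, and the 36 all lower, beside 5.17%. The cause of these moves was not tested.

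With the replicate number as a replicate block the counts were 1 in C57BL/6J, 39 in tsA58, 9 between the lines, 2 between the tissues and 18 for the difference between the strains. The 2 between the tissues were lower, and the other calls were higher. All genes called in the same direction were 17.6%, 12.7%, 8.14%, 2.57% and 5.64%, in that order. Deviations of same-numbered arrays had correlations of -0.156 to 0.25 (median -0.041), against -0.175 to 0.203 (median 0.013) for different numbers. They were taken from group means of 2 or 3 arrays, which ties the values within a group together, so they cannot decide on pairing. The numbers are not taken to pair the arrays because no label says so.

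In C57BL/6J line against tissue some single genes took the opposite sign under another setting. Hybridisation-control centring gave Bub1 0.70, Ttk 0.87, Incenp 1.09, Cdc20 0.59, Ndc80 0.52, Prc1 0.48, Top2a 0.77, Ncapg 0.23, Smc4 0.82, Stag2 0.14, Stag1 0.24. Quantile normalisation again gave Mad2l1 -0.017, Cdk1 -0.054. Cyclic loess gave Mad2l1 -0.18, Cdk1 -0.20, Ccnb2 -0.059, Kif11 -0.088, Cenpa -0.099. The actin ratio as a covariate gave Mad2l1 -0.026, Cdk1 -0.036. Array weights gave Cdk1 -0.034. The mean of a gene's probe sets gave Incenp 0.41, Kif11 -7e-04. The probe set of highest interquartile range gave Incenp 1.26, Kif11 -0.77. Without single arrays the ranges were Mad2l1 -0.056 to 0.19, Cdk1 -0.19 to 0.19, Ccnb2 -0.21 to 0.66, Kif11 -0.14 to 0.44, Cenpa -0.12 to 0.42, with the sign turned without C57BL/6J line replicate 3.

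Between the tissues some single genes took the opposite sign under another setting. Hybridisation-control centring gave Bub1 0.041, Bub1b 0.15, Mad2l1 0.53, Ttk 0.79, Cdk1 0.30, Aurka 1.08, Plk1 1.55, Tpx2 0.58, Foxm1 1.42, Aurkb 1.18, Incenp 0.50, Ube2c 0.22, Kif11 0.84, Kif20a 0.36, Cenpf 0.20, Ndc80 0.56, Prc1 0.33, Racgap1 0.96, Smc2 1.04, Smc4 1.86, Cenph 0.46. The probe set of highest interquartile range gave Foxm1 0.39. The actin ratio as a covariate gave Smc4 0.84.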
